A study of Mus musculus with 7 samples.

Results

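The genes described here mark mature T cells and natural killer (NK) cells, and their transcripts were followed in sorted haematopoietic stem cells (HSCs) of mouse marrow. The set is a list of 34 genes chosen by name, 19 of T cells and 15 of NK cells, out of 28786 genes in the deposited count table, and all 34 were found there by symbol. Libraries fell into an MC38 group of 4, from mice with MC38 colon cancer, and a control group of 3, from normal mice. The study asked how a tumour biases HSCs towards myeloid cells. The mice were C57BL/6J, aged 6 to 8 weeks in both groups, and each library came from 1500 sorted HSCs of femora and tibiae after red cell lysis, with 12 cycles of cDNA amplification. MC38 is a mouse colon carcinoma line. Tumour site, size and age, and how the HSCs were gated, are not given in the labels. The labels do not tie each library to a mouse of its own, so p-values measure only the spread between libraries, which may be technical.

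T cells recognise peptides through the T cell receptor, whose chains have no signalling tail of their own and rely on the CD3 proteins and the zeta chain. Phosphorylated CD3 tails recruit the kinase ZAP-70, which phosphorylates the adaptor LAT, while CD4 or CD8 bind the MHC molecule and CD28 gives costimulation. NK cells lack this receptor. They weigh signals from activating and inhibitory receptors, many of them lectin-like proteins of the Klr genes, and kill with perforin and granzymes under the transcription factors T-bet and Eomes. Both cell types arise from lymphoid progenitors and are largely absent from a pure HSC sort, although several of these genes are also used by other blood cells. In bulk RNA, fewer or more cells of a type and less or more RNA per cell cannot be told apart.

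The MC38 libraries held 13368238 to 17657037 counts and control libraries 1 and 2 held 12131546 and 12306066. Control column 3 is not independent of the other controls and entered only the fit with all 7 columns, an alternative. Among 9692 genes in which control columns 1 and 2 together held 200 counts or more, it was at a median of 0.353 times their sum, and 97.0% of those genes were within 5% of this ratio. Stem and progenitor genes were present in both groups, among them Kit (328 ± 29.4 CPM in MC38 and 352 ± 42.8 CPM in control) and Hlf (183 ± 23.7 CPM in MC38 and 188 ± 26.8 CPM in control; SD, n = 4 and 2 throughout), both chosen after their values were seen. None of the 18 genes of that list was at 0 in every library. The 2 genes of smallest p in that list did not pass in edgeR and differed in direction. Ly6a had a log2 fold change of 0.65 (edgeR adjusted p = 0.0522) and Gata2 of -0.50 (0.0726), and DESeq2 called both. In 5 of the 18 all MC38 libraries were above both controls and in 1 all were below, beside 14% and 15.0% of tested genes. The list summed to 2964 to 3423 CPM over the MC38 libraries, and 10 neutrophil granule markers to 54145 to 61653 CPM. Over the controls the sums were 3137 to 3302 CPM and 28016 to 28285 CPM. Of the 14226 genes tested in edgeR, 148 (1.04%) were higher in MC38 and 81 (0.569%) lower at an adjusted p under 0.05. Without control library 1 they numbered 44 and 16, without control library 2 58 and 25, and without MC38 libraries 1 to 4 in turn 259, 69, 194 and 77 higher and 183, 28, 101 and 31 lower. In percent of genes tested, the higher calls were 0.291% and 0.383% without control library 1 or 2, and 1.86%, 0.494%, 1.39% and 0.548% without MC38 libraries 1 to 4. CPM are counts scaled to a common library total with TMM factors.

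Sequence matters to how some members could be counted. Trbc1 and Trbc2, the alternative constant regions of the receptor beta chain, are tandem copies on chromosome 6 (chr6:41538218-41539881 and chr6:41546730-41548352, mm10, plus strand). Their GENCODE transcripts differ at 24 of 512 aligned bases, and the first difference is at position 260 from the start of the constant region. The stretch from position 231 to 350 is shown 5′ to 3′ because it holds that first difference, in capitals, within otherwise identical sequence.
Trbc1: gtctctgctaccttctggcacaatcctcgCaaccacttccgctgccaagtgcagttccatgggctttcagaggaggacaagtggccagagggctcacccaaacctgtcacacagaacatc
Trbc2: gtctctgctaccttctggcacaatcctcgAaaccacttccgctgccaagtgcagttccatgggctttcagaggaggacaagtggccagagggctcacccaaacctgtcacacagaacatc
A read that lies within the first 259 bases of the constant region does not tell the copies apart, so their separate counts are uncertain.

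RefSeq promoters (GRCm38.p6, 250 bases before to 50 after the start) were held for 22 of the 34 members. The promoters of Klra17, the 1 member that passed the test, and of Klrb1c and Gzmb, for which all MC38 libraries were above both controls, are shown 5′ to 3′ with the core Runx motif TGTGGT or its reverse complement in capitals. Runx proteins are transcription factors of T and NK cells. Both strands were searched, and no other motif was.
Klra17, chr6:129876623-129876922, minus strand: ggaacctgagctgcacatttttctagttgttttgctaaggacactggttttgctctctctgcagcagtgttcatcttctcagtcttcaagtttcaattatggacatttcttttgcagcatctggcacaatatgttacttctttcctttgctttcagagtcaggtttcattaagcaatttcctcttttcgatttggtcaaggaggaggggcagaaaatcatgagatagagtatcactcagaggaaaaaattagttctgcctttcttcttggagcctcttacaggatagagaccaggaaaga
Klrb1c, chr6:128788592-128788891, minus strand: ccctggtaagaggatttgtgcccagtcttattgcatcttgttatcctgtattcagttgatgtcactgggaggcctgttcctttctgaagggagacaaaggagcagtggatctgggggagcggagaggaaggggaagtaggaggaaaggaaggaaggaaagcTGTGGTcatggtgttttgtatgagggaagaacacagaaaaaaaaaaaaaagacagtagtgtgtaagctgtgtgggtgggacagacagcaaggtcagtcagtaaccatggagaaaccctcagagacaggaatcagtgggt
Gzmb, chr14:56262285-56262584, minus strand: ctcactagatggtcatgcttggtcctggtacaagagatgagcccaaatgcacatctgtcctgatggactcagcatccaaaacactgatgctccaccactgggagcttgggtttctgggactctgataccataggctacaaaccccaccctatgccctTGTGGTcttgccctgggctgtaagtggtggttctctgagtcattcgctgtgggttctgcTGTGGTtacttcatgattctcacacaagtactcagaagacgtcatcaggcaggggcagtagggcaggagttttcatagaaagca
The Klrb1c window held the motif at 1 place, the Gzmb window at 2 and the Klra17 window at none. Of the 22 members with a promoter, 12 held it in at least 1 of their windows, against 18.9% of 27025 genes, and 16.8% of 32851 promoter windows held it. A match here is a run of letters and no measure of binding.

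Among the T cell receptor genes, the constant regions and the CD3 gamma and delta chains had higher levels in every MC38 library than in either control, but none passed the adjusted test. Trbc1 had 34.2, 24.9, 22.4 and 25.8 CPM in MC38 libraries 1 to 4, against 11.9 and 13.04 CPM in control libraries 1 and 2 (log2 fold change 1.10 with SE 0.26, edgeR adjusted p = 0.0688). Trbc2 had 14.9, 15.9, 18.7 and 15.02 CPM in the MC38 libraries and 6.39 and 9.82 CPM in the controls (log2 fold change 0.99 with SE 0.31, edgeR adjusted p = 0.148). Every MC38 library lay above both controls for both genes, and the fitted ratio was 2.15 for Trbc1 and 1.99 for Trbc2. Trac, the constant region of the alpha chain, was sparser, with 42, 66, 80 and 34 counts in MC38 libraries 1 to 4 and 13 and 15 in control libraries 1 and 2, and its groups did not overlap either (log2 fold change 1.61 with SE 0.69, edgeR adjusted p = 0.268).

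The CD3 chains gave unlike values. Cd3g, the gamma chain, had 11.7, 9.71, 10.9 and 13.3 CPM in MC38 libraries 1 to 4, against 3.02 and 5.94 CPM in control libraries 1 and 2 (log2 fold change 1.34 with SE 0.40, edgeR adjusted p = 0.127). Cd3d, the delta chain, starts 1355 bases from Cd3g in the opposite direction on chromosome 9, and had 15.4, 11.8, 10.9 and 17.3 CPM in the MC38 libraries and 7.73 and 7.76 CPM in the controls (log2 fold change 0.84 with SE 0.33, edgeR adjusted p = 0.233). For both, all MC38 libraries were above both controls. Cd3e, the epsilon chain without which the receptor complex is not assembled, gave values that overlapped, 1.35, 2.87, 4.396 and 2.81 CPM in the MC38 libraries and 3.11 and 1.899 CPM in the controls (log2 fold change 0.19 with SE 0.70, edgeR adjusted p = 0.923). MC38 library 1, which ranked just below library 4 for Cd3d and Cd3g, had the lowest Cd3e value of all libraries, at 20 counts. Cd247, the zeta chain, had 10.96, 8.34, 7.23 and 9.99 CPM in the MC38 libraries and 5.21 and 6.85 CPM in the controls (log2 fold change 0.60 with SE 0.37, edgeR adjusted p = 0.445), separated by a narrow margin. Exons of Cd247 share 3007 bases with Pou2f1 on the opposite strand, and since the strand setting of the counting is not given, reads of those bases cannot be assigned with certainty.

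**Figure D1:**
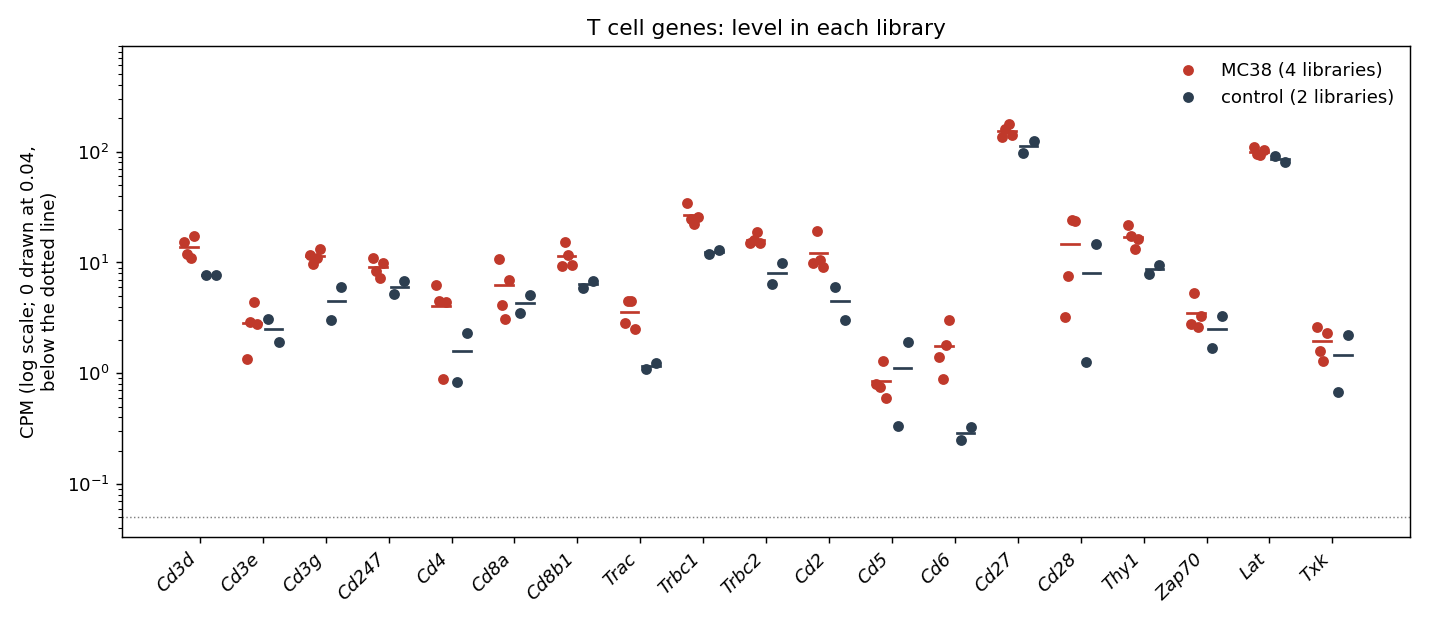
CPM of the 19 T cell genes in each library on a log scale, with MC38 libraries in red on the left of each pair, control libraries 1 and 2 in dark blue on the right, and short lines at the group means. Trbc1, Trbc2, Cd3d, Cd3g and Thy1 show MC38 points above both controls, while Cd28, Cd4 and Cd5 spread widely within a group.

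The coreceptors gave a divided picture. Cd8b1, the CD8 beta chain, had 9.35, 15.5, 11.7 and 9.47 CPM in MC38 libraries 1 to 4, against 5.88 and 6.77 CPM in control libraries 1 and 2 (log2 fold change 0.86 with SE 0.36, edgeR adjusted p = 0.258), with no overlap. Cd8a, the alpha chain, overlapped, with 10.8, 4.17, 3.12 and 6.88 CPM in the MC38 libraries and 3.53 and 5.04 CPM in the controls (edgeR adjusted p = 0.6796). Cd4 had 94, 66, 16 and 60 counts in MC38 libraries 1 to 4 and 10 and 28 in control libraries 1 and 2, and MC38 library 3 fell between the controls (log2 fold change 1.35 with SE 0.87, edgeR adjusted p = 0.466). CD4 in mice is also carried by plasmacytoid dendritic cells.

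Of the adhesion and costimulatory receptors, Cd2, which binds CD48, had 9.82, 19.4, 10.6 and 9.03 CPM in MC38 libraries 1 to 4, against 5.97 and 3.05 CPM in control libraries 1 and 2 (log2 fold change 1.44 with SE 0.47, edgeR adjusted p = 0.162). Its MC38 library 2 stood far above the other MC38 libraries, which were close together, yet all of them exceeded both controls. Thy1, a surface glycoprotein of T cells that HSCs of some mouse strains carry at a low level, had 21.7, 17.4, 13.3 and 16.1 CPM in the MC38 libraries and 7.81 and 9.49 CPM in the controls (log2 fold change 0.99 with SE 0.31, edgeR adjusted p = 0.1498), without overlap. Cd6 was rare, with 21, 13, 32 and 41 counts in MC38 libraries 1 to 4 and 3 and 4 in control libraries 1 and 2 (log2 fold change 2.57 with SE 1.15, edgeR adjusted p = 0.286), and it met the count filter only through the MC38 libraries, so that a difference was built into its being tested.

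Cd28, the main costimulatory receptor, showed how far single libraries could differ within a group. It had 3.23, 7.52, 24.3 and 23.7 CPM in MC38 libraries 1 to 4, against 1.26 and 14.7 CPM in control libraries 1 and 2, so that the controls lay far apart and the groups overlapped (edgeR adjusted p = 0.692). Cd5, a negative regulator of receptor signals, had 12, 11, 23 and 8 counts in MC38 libraries 1 to 4 and 4 and 23 in control libraries 1 and 2 and also overlapped (log2 fold change -0.38 with SE 1.10, edgeR adjusted p = 0.901). It was the 1 T cell gene with a negative log2 fold change. Cd27, a TNF receptor family member that is also present on multipotent progenitors, was the most abundant T cell gene. It had 136, 160.5, 179 and 141 CPM in the MC38 libraries and 97.1 and 126 CPM in the controls (log2 fold change 0.47 with SE 0.16, edgeR adjusted p = 0.182), all MC38 values being above the higher control, library 1 by a small margin.

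The genes of signalling proteins downstream of the receptor had no difference that passed. Only that of Lat was measured closely, as Zap70 had a log2 fold change of 0.48 with SE 0.64 and Txk of 0.42 with SE 0.88. Lat, an adaptor also used by platelets and mast cells, had 111, 95.04, 92.4 and 103 CPM in MC38 libraries 1 to 4, against 91.7 and 79.98 CPM in control libraries 1 and 2 (log2 fold change 0.22 with SE 0.14, edgeR adjusted p = 0.454), and the lowest MC38 value was nearly level with the higher control. Zap70 had 2.76, 5.26, 2.62 and 3.26 CPM in the MC38 libraries and 1.68 and 3.302 CPM in the controls and Txk, a Tec family kinase, 2.62, 1.57, 1.28 and 2.29 CPM in the MC38 libraries and 0.672 and 2.23 CPM in the controls, with overlap in both (edgeR adjusted p = 0.7598 and 0.862).

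Over the 19 T cell genes none was called in edgeR or limma-voom at an adjusted p under 0.05. DESeq2, which called 4.14% of the genes it tested as higher and 2.57% as lower, called 5 (Cd3g, Trbc1, Trbc2, Cd2 and Thy1). The edgeR fit with all 7 columns, where 5.74% were higher and 4.81% lower, called the same 5. That fit counts control column 3, which is not independent, as a further control, so its calls are not separate evidence. At an unadjusted edgeR p under 0.05, 10 of the 19 were higher and none lower, beside 9.26% and 8.22% of all tested genes; without Cd6, which was tested only through MC38, they were 9 of 18. In 12 of the 19 every MC38 library was above both controls, and in none were they all below, against 14% and 15.0% of tested genes, and without Cd6 in 11 of 18. The log2 fold change was positive for 18 of 19, with a median of 0.86, while 50.9% of all tested genes had a positive value and their median was 0.01.

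The NK cell genes split in a different way: 4 lectin-like receptors and Gzmb had higher levels in every MC38 library than in either control, as had Tbx21, which was tested only through MC38, and the other members overlapped or met. Klra17 was the single member of the 34 that passed. It encodes Ly49Q, an inhibitory lectin-like receptor that, unlike most Ly49 proteins, is known from plasmacytoid dendritic cells and myeloid cells and not from NK cells. Klra17 (ENSMUSG00000014543, chr6:129831154-129876672, mm10, minus strand) had 12.6, 9.71, 10.2 and 9.62 CPM in MC38 libraries 1 to 4, against 2.605 and 2.97 CPM in control libraries 1 and 2, that is 187, 142, 183 and 130 counts in MC38 libraries 1 to 4 and 31 and 36 in control libraries 1 and 2. The MC38 libraries were close together and all far above both controls, and the gene rose 3.76-fold (log2 fold change 1.91 with SE 0.38, edgeR adjusted p = 0.0428). The Klra17 call did not survive every omission of a library (edgeR adjusted p = 0.0526 without MC38 library 1, 0.1196 without MC38 library 2, 0.136 without MC38 library 4, 0.213 without control library 1 and 0.123 without control library 2). In limma-voom it was 0.114, and with the replicate number as a block 0.0704 in edgeR. Among the fitted libraries, replicate numbers 3 and 4 were in MC38 alone. The block fit therefore took its difference from libraries 1 and 2 of each group and had little left to measure the spread. Ly49 genes are near-identical copies in places, so the split of reads between Klra17 and its relatives is uncertain. Summed plasmacytoid dendritic cell markers were 1226 to 1406 CPM over the MC38 libraries and 1033 to 1113 CPM over the controls. Of these 18 markers 2 were called higher, Siglech (log2 fold change 1.23) and Ccr9 (2.08), beside 1.04% of all tested genes. The median of the 18 was 0.42, and 4 had a negative log2 fold change. The part of these markers in the Klra17 result was not tested.

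**Figure D2:**
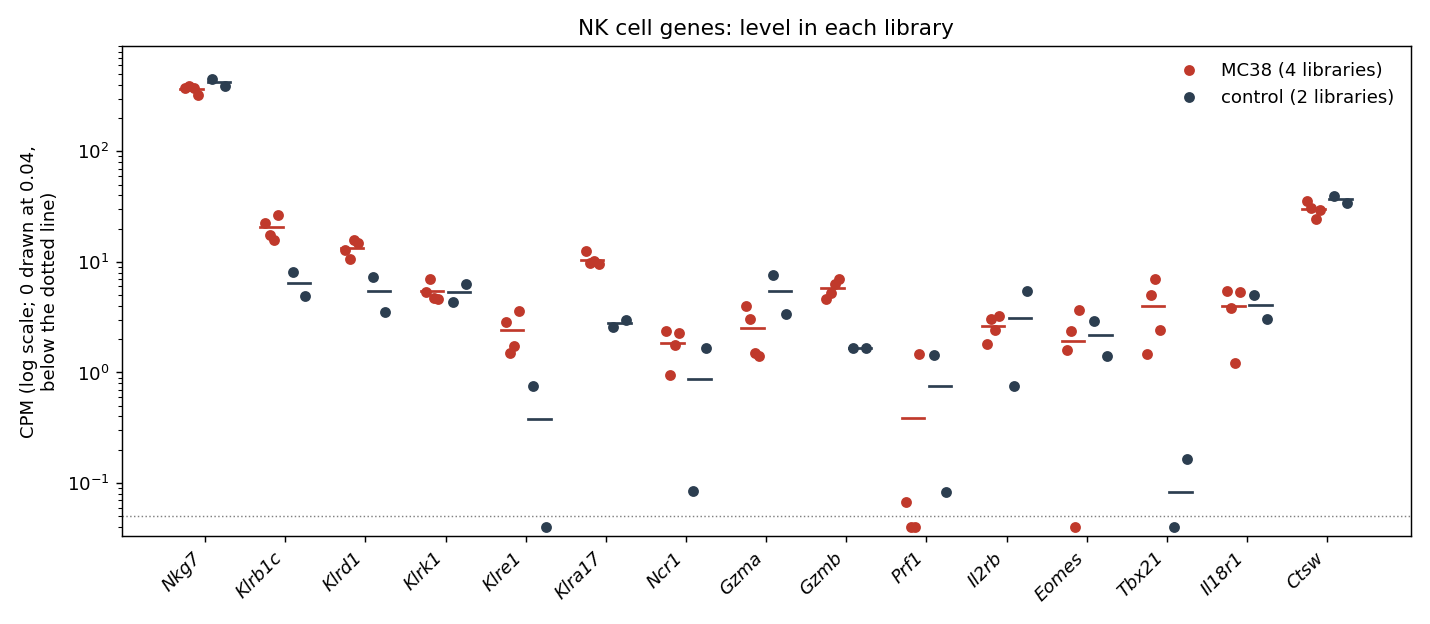
CPM of the 15 NK cell genes in each library on a log scale, MC38 libraries in red on the left of each pair and control libraries 1 and 2 in dark blue on the right, with short lines at the group means and values of 0 drawn below the dotted line. Klra17, Klrb1c, Klrd1 and Gzmb show MC38 points above both controls, Nkg7 is the most abundant member, and Prf1, Eomes, Klre1 and Tbx21 include libraries with no count.

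Klrb1c, which encodes NK1.1, the usual NK cell marker in C57BL/6 mice, had 22.5, 17.4, 15.7 and 26.6 CPM in MC38 libraries 1 to 4, against 8.07 and 4.87 CPM in control libraries 1 and 2 (log2 fold change 1.67 with SE 0.36, edgeR adjusted p = 0.0541). All MC38 libraries were above both controls, and the adjusted p lay just beyond the threshold. It came under it without MC38 library 1 (edgeR adjusted p = 0.0478) and without MC38 library 3 (0.0253). It also came under the threshold with the replicate number as a block (edgeR adjusted p = 0.0304), a fit limited as given above. It stayed beyond it without MC38 library 2 (edgeR adjusted p = 0.115), MC38 library 4 (0.162), control library 1 (0.161) or control library 2 (0.185), and in limma-voom (0.112). Klrd1, or CD94, the partner of the NKG2 receptors, had 12.8, 10.7, 15.7 and 14.8 CPM in the MC38 libraries and 7.31 and 3.55 CPM in the controls (log2 fold change 1.31 with SE 0.39, edgeR adjusted p = 0.132), again without overlap. Klre1, a lectin-like receptor that pairs with Klri proteins, had 43, 22, 31 and 49 counts in MC38 libraries 1 to 4 and 9 and 0 in control libraries 1 and 2 (log2 fold change 2.66 with SE 1.31, edgeR adjusted p = 0.333), and its control value rests on 1 library.

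Other NK receptors did not separate. Klrk1, the stress-ligand receptor NKG2D, had 5.38, 7.04, 4.67 and 4.66 CPM in the MC38 libraries and 4.37 and 6.27 CPM in the controls, with overlapping levels (log2 fold change 0.03 with SE 0.43, edgeR adjusted p = 0.9798). Ncr1, or NKp46, a receptor found on NK cells and some innate lymphoid cells, had 35, 14, 32 and 31 counts in MC38 libraries 1 to 4 and 1 and 20 in control libraries 1 and 2, and control library 2 lay inside the MC38 range (log2 fold change 1.08 with SE 1.17, edgeR adjusted p = 0.688). Control library 1 had nearly no Ncr1 count, and the log2 fold change was 0.16 without that library.

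The cytotoxic granule genes did not share a direction. Gzmb, granzyme B, had 4.64, 5.26, 6.34 and 6.95 CPM in MC38 libraries 1 to 4, against 1.68 and 1.65 CPM in control libraries 1 and 2 (log2 fold change 1.79 with SE 0.51, edgeR adjusted p = 0.116), with every MC38 library above both controls. Gzma, granzyme A, had 4.04, 3.08, 1.502 and 1.41 CPM in the MC38 libraries and 7.65 and 3.38 CPM in the controls (log2 fold change -1.14 with SE 0.65, edgeR adjusted p = 0.408), and MC38 library 1 lay between the controls. Prf1, perforin, which makes the pores that granzymes need, was nearly absent in most libraries, with 1, 0, 0 and 20 counts in MC38 libraries 1 to 4 and 17 and 1 in control libraries 1 and 2 (edgeR adjusted p = 0.853). Its counts came almost wholly from 1 library of each group. Granzyme B is also made by plasmacytoid dendritic cells and mast cells.

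Nkg7, a granule membrane protein of cytotoxic lymphocytes, and Ctsw, the protease cathepsin W, were the most abundant NK cell genes and had negative log2 fold changes that did not pass. Nkg7 had 372, 388, 374 and 326 CPM in MC38 libraries 1 to 4, against 453 and 388 CPM in control libraries 1 and 2 (log2 fold change -0.20 with SE 0.12, edgeR adjusted p = 0.4204). MC38 library 2 and control library 2 were level, so the groups met. Ctsw had 35.5, 30.6, 24.4 and 29.7 CPM in the MC38 libraries and 39.4 and 34.3 CPM in the controls (log2 fold change -0.30 with SE 0.21, edgeR adjusted p = 0.512), with MC38 library 1 above the lower control.

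The regulators and cytokine receptors were rare. Tbx21, which encodes T-bet, had 22, 73, 126 and 33 counts in MC38 libraries 1 to 4 and 0 and 2 in control libraries 1 and 2. The summed count was 254 in MC38 against 2 in control, a ratio of 50.02 scaled for depth with a 95% exact interval of 13.7 to 415 that covers counting error only. The edgeR adjusted p was 0.0688 (0.0266 without MC38 library 1, 0.0932 to 0.294 without any other library, and 0.324 in limma-voom), and like Cd6 the gene met the count filter only through MC38. The MC38 libraries themselves spread from 1.48 to 7.01 CPM. Eomes, the related T-box factor, overlapped, with 24, 35, 0 and 50 counts in MC38 libraries 1 to 4 and 35 and 17 in control libraries 1 and 2 (edgeR adjusted p = 0.961). Il2rb, the beta chain shared by the IL-2 and IL-15 receptors, had 27, 45, 44 and 44 counts in MC38 libraries 1 to 4 and 9 and 66 in control libraries 1 and 2, and both extremes were control libraries (edgeR adjusted p = 0.918). Il18r1, the ligand-binding chain of the IL-18 receptor, had 5.51, 3.83, 1.22 and 5.401 CPM in the MC38 libraries and 5.04 and 3.05 CPM in the controls, with full overlap (edgeR adjusted p = 0.992).

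Over the 15 NK cell genes 1 was called higher and none lower in edgeR, beside 1.04% and 0.569% of all tested genes. limma-voom, where 0.633% of genes were higher and 0.499% lower, called none. Without the low-count filter (1.41% higher) 3 were called, at a minimum count of 30 (1.48% higher) 2, and without immunoglobulin genes in the table (0.672% higher) none. DESeq2, where 4.14% of genes were higher and 2.57% lower, called 5 (Klrb1c, Klrd1, Klra17, Gzmb and Tbx21). The same 5 had an unadjusted edgeR p under 0.05, beside 9.26% higher and 8.22% lower of all tested genes. The 7-column fit (5.74% higher and 4.81% lower) called 4 of them, all but Gzmb. It counts control column 3, which is not independent, as a further control. Gzmb had 20 and 20 counts in control libraries 1 and 2 but 0 in control column 3. In 6 of the 15 all MC38 libraries were above both controls, and in 1, Nkg7, all were below, there by less than the printed precision. Over all tested genes these shares were 14% and 15.0%. Leaving out Tbx21, which met the count filter only through MC38, 4 of 14 had an unadjusted edgeR p under 0.05, DESeq2 called 4 and 5 of 14 had all MC38 libraries above both controls. The median log2 fold change was 0.03, with 8 positive and 7 negative values, against 50.9% positive over all tested genes. The median was 0.89 without control library 2, 0.45 without control library 1, 0.54 without MC38 library 4 and -0.00172 without MC38 library 2. Whether the T cell and NK cell genes differ from each other in their change was not tested.

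**Figure D3:**
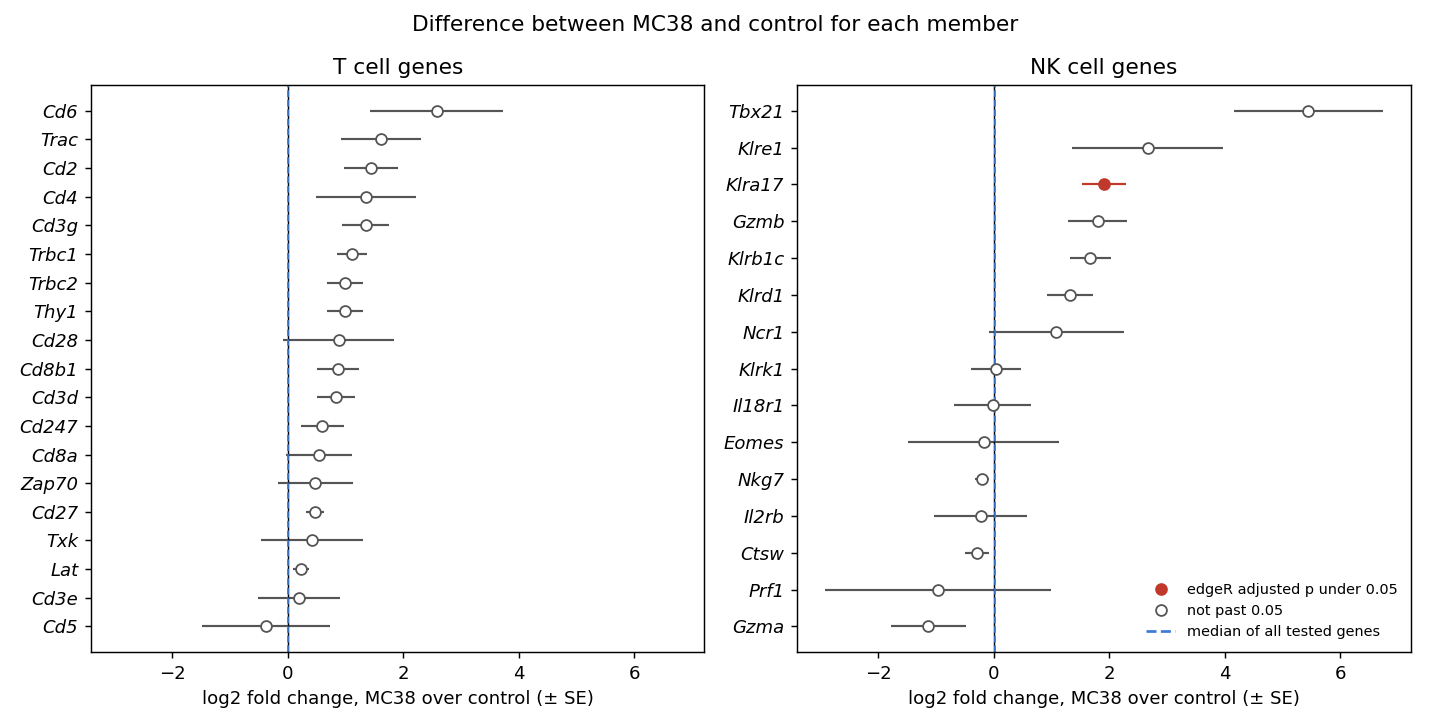
Log2 fold change of MC38 over control with its standard error for each T cell gene (left) and NK cell gene (right), sorted by size, with a dashed line at the median of all tested genes. Klra17 is the filled point, the 1 member with an edgeR adjusted p under 0.05. The T cell genes lie right of 0 except Cd5, and the NK cell genes lie on both sides.

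Summed over their members, T cell genes gave 407, 410.5, 422 and 409.5 CPM in MC38 libraries 1 to 4, against 255 and 301 CPM in control libraries 1 and 2. The MC38 sums were close together and above both controls, at 1.48 times the control mean. NK cell genes gave 485, 488, 467 and 442 CPM in the MC38 libraries and 535 and 456 CPM in the controls, which overlapped, at 0.949 times the control mean. Both sums were dominated by few genes: Cd27 and Lat took 61.7% of the T cell sum in MC38 and 70.8% in control, and Nkg7 and Ctsw took 83.9% of the NK cell sum in MC38 and 92.2% in control.

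Without these abundant genes, a choice made after their values were seen, the other 17 T cell genes summed to 158 ± 6.72 CPM in MC38 and 81.2 ± 20.5 CPM in control, a ratio of 1.94. The other 13 NK cell genes summed to 75.6 ± 8.201 CPM in MC38 and 38.6 ± 5.78 CPM in control, a ratio of 1.96. The direction of the NK cell sum thus turned on 2 genes. The ratio of 1.96 was not shared by all 13 NK cell genes left. Klrb1c averaged 20.6 CPM in MC38 and 6.47 CPM in control, and Klrd1 13.5 CPM in MC38 and 5.43 CPM in control. Klra17, not known from NK cells, averaged 10.5 CPM in MC38 and 2.79 CPM in control. In contrast, Gzma, Prf1, Il2rb, Eomes and Il18r1 had negative log2 fold changes. Both remainders were higher in every MC38 library than in either control, and these sums are descriptions with no test.

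**Figure D4:**
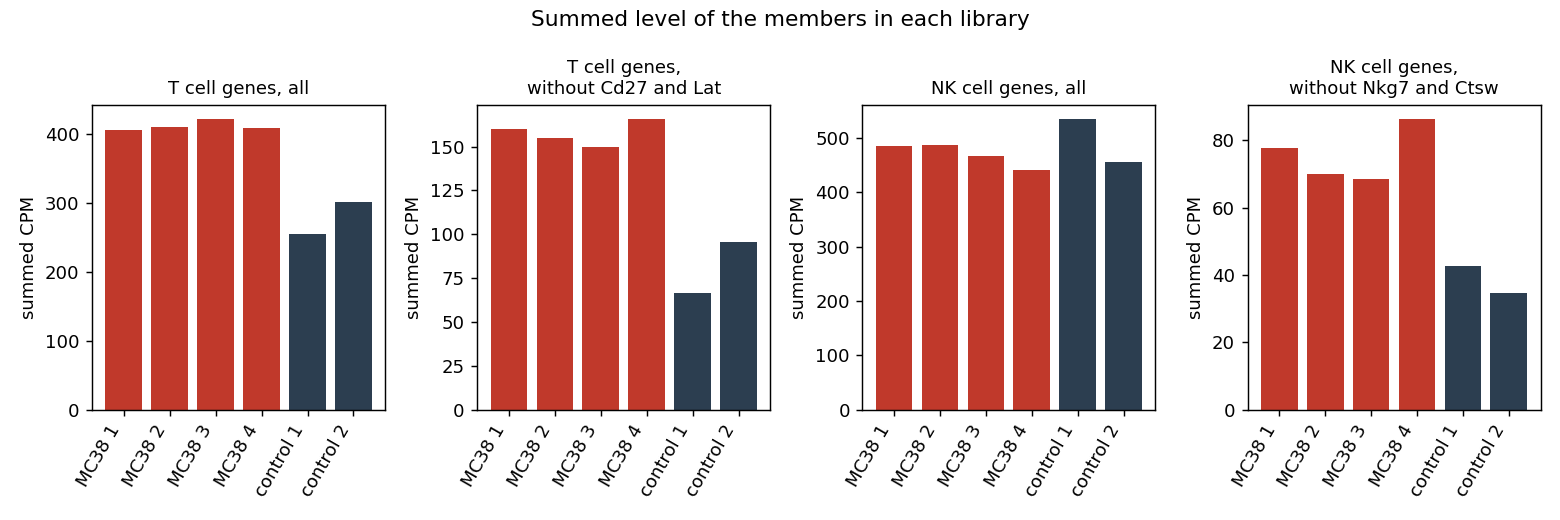
Summed CPM per library, MC38 libraries 1 to 4 in red and control libraries 1 and 2 in dark blue, for all T cell genes, T cell genes without Cd27 and Lat, all NK cell genes, and NK cell genes without Nkg7 and Ctsw. The NK cell sums overlap when all genes are used and separate without Nkg7 and Ctsw.

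Per kilobase of annotated exon, the 3 most abundant members were the same in both groups. Nkg7 averaged 399 RPKM in MC38 and 459.8 RPKM in control, far above every other member. Cd27 averaged 66.2 RPKM in MC38 and 47.9 RPKM in control, and Lat 36.2 RPKM in MC38 and 31.02 RPKM in control. Trbc1 followed in MC38 at 35.8 RPKM and lay at 16.7 RPKM in control, where Ctsw was above it at 19.5 RPKM. For comparison Kit, a stem and progenitor marker, averaged 36.8 RPKM in MC38 and 39.5 RPKM in control. Lat and Trbc1 were close to each other in MC38. Among the receptor and coreceptor genes the levels spread widely. Trbc2 was at 23.3 RPKM in MC38 and 11.7 RPKM in control, Cd8b1 at 7.76 RPKM in MC38 and 4.26 RPKM in control, and Cd3d at 7.64 RPKM in MC38 and 4.27 RPKM in control. Cd3e was at 0.7 RPKM in MC38 and 0.614 RPKM in control, Cd4 at 1.002 RPKM in MC38 and 0.391 RPKM in control, and Ncr1 at 1.199 RPKM in MC38 and 0.563 RPKM in control. Among the 34 genes edgeR's biological coefficient of variation ran from 0.126 for Nkg7 to 1.501 for Prf1.

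Each MC38 library was the highest for some of the members. MC38 library 1 was the highest of the 4 for 7 T cell genes and 5 NK cell genes, library 2 for 4 and 2, library 3 for 5 and 2, and library 4 for 3 and 6. Over all tested genes the shares of highest values were 32.8%, 18.6%, 30.1% and 18.5%.

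Related lists of T and NK cell genes were read in the same fit. Of 27 tested genes of T cell receptor signalling none passed (median log2 fold change 0.46, 5 higher at an unadjusted p under 0.05 beside 9.26% of all tested genes, 4 called by DESeq2 beside 4.14% higher and 2.57% lower, and none by limma-voom). Of these, Icos and Sh2d1a were tested only through MC38, and without them 3 of 25 had such a p and DESeq2 called 2. The smallest p-values belonged to Pag1, an adaptor that holds the inhibitory kinase Csk at the membrane (59.8 ± 7.32 CPM in MC38 and 35.2 ± 2.74 CPM in control, edgeR adjusted p = 0.0688), and to Ptprc, the pan-leukocyte phosphatase CD45 (288 ± 50.4 CPM in MC38 and 195 ± 0.552 CPM in control, edgeR adjusted p = 0.1202). Of 18 tested regulators of T cells and innate lymphoid cells 1 rose, beside 1.04% of all tested genes. It was Id2, an inhibitor of E proteins needed for NK and innate lymphoid cells but used widely (198 ± 30.7 CPM in MC38 and 98.7 ± 16.4 CPM in control, log2 fold change 1.01 with SE 0.17, edgeR adjusted p = 0.0215). The Id2 call did not survive every omission of a library (edgeR adjusted p = 0.0751 without MC38 library 2, 0.0583 without MC38 library 4, 0.2302 without control library 1 and 0.0831 without control library 2). Tcf7, the factor TCF-1 of early T cells, did not pass (22.8 ± 5.86 CPM in MC38 and 9.51 ± 2.95 CPM in control, edgeR adjusted p = 0.0994), nor did Ikzf2, the factor Helios (61.5 ± 11.04 CPM in MC38 and 35.4 ± 6.39 CPM in control, edgeR adjusted p = 0.101).

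NK receptors and adaptors had 4 of 28 tested genes higher and none lower, beside 1.04% and 0.569% of all tested genes, with a median log2 fold change of 1.01. Fcer1g and Tyrobp, which carry the activating signal of NK receptors and of many myeloid receptors, both rose. The fold was 1.89 for Fcer1g (edgeR adjusted p = 0.00444) and 1.71 for Tyrobp (edgeR adjusted p = 0.0161). Itgb2, the integrin chain CD18 of leukocytes, rose 2.06-fold (edgeR adjusted p = 0.00453). Klra9, a Ly49 receptor, had 38, 27, 70 and 41 counts in MC38 libraries 1 to 4 and 0 and 0 in control libraries 1 and 2, at least 23.1-fold higher against a floor of 3 counts over the control group (edgeR adjusted p = 0.0403). Klra9 met the count filter only through MC38, as did Klra4, Klra6 and Klra8, so a difference was built into their being tested, and without these 4 genes 3 of 24 were called. Fcgr3 and Cd244a did not pass (edgeR adjusted p = 0.0595 and 0.0806). The Fcer1g call did not survive every omission of a library (edgeR adjusted p = 0.0797 without control library 1 and 0.0745 without control library 2). The Tyrobp call did not survive every omission of a library (edgeR adjusted p = 0.0751 without MC38 library 2, 0.179 without control library 1 and 0.116 without control library 2). The Itgb2 call did not survive every omission of a library (edgeR adjusted p = 0.0695 without control library 2). The Klra9 call did not survive every omission of a library (edgeR adjusted p = 0.104 without MC38 library 2, 0.136 without MC38 library 4, 0.1496 without control library 1 and 0.104 without control library 2). Klra9 was also not called with the replicate number as a block (edgeR adjusted p = 0.0699), in limma-voom (0.151) and without immunoglobulin genes (0.0512).

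Effector and cytokine genes had 3 of 32 higher and none lower, beside 1.04% and 0.569% of all tested genes, with a median of 0.18. They were Ccr7, a chemokine receptor of naive T cells and dendritic cells (4.004-fold, edgeR adjusted p = 0.0166), Il18rap, the accessory chain of the IL-18 receptor (2.396-fold, edgeR adjusted p = 0.017), and Il2rg, the chain shared by several interleukin receptors (1.56-fold, edgeR adjusted p = 0.0333). Il18rap had 46.3, 35.8, 42.9 and 41.9 CPM in the MC38 libraries and 18.8 and 16.01 CPM in the controls, whereas its partner Il18r1 overlapped as given above. Ccl5 (107 ± 15.6 CPM in MC38 and 63.9 ± 8.87 CPM in control, edgeR adjusted p = 0.0686) and Cst7 (28.01 ± 4.103 CPM in MC38 and 47 ± 11.7 CPM in control, edgeR adjusted p = 0.122), an inhibitor of granule proteases, did not pass and lay in opposite directions. The Ccr7 call did not survive every omission of a library (edgeR adjusted p = 0.0729 without MC38 library 2, 0.0651 without MC38 library 4, 0.119 without control library 1 and 0.0999 without control library 2). In limma-voom its adjusted p was 0.0639. The Il18rap call did not survive every omission of a library (edgeR adjusted p = 0.0708 without MC38 library 4, 0.113 without control library 1 and 0.113 without control library 2). The Il2rg call did not survive every omission of a library (edgeR adjusted p = 0.119 without MC38 library 2, 0.0914 without MC38 library 4, 0.161 without control library 1 and 0.163 without control library 2).

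**Figure D5:**
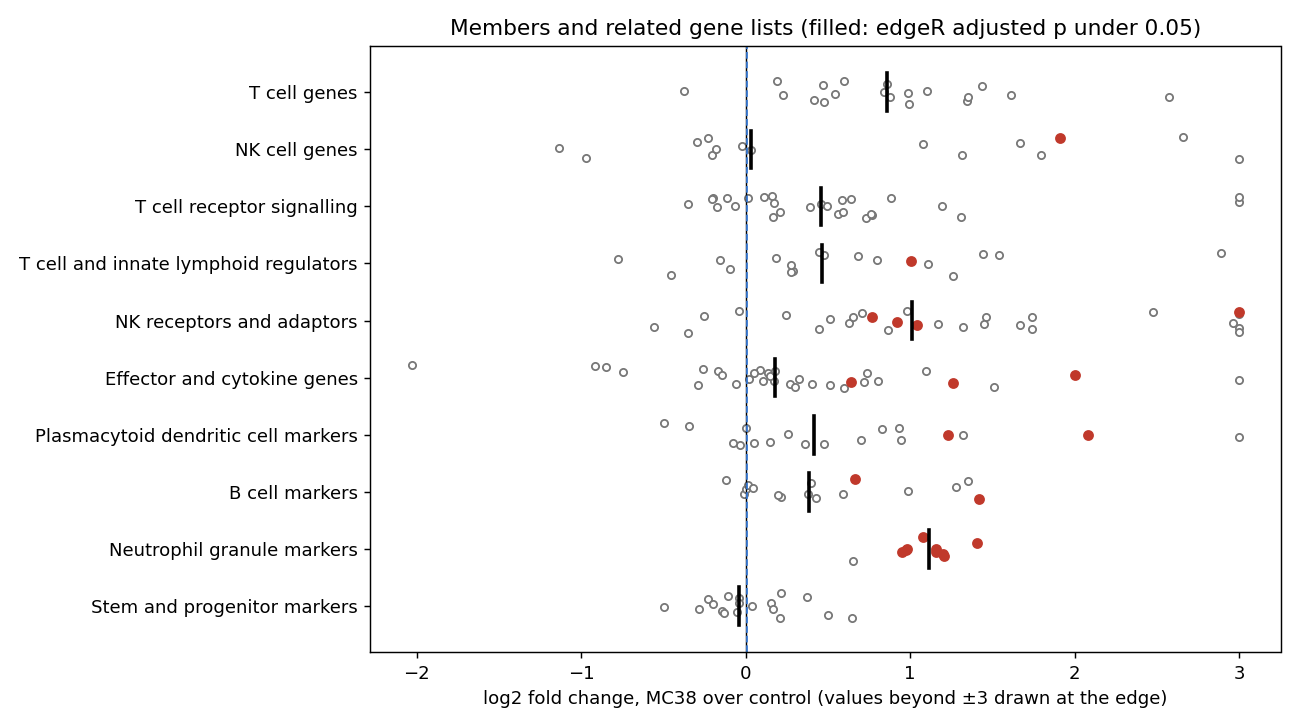
Log2 fold change of MC38 over control for each tested gene of the T and NK cell sets and of 8 related or marker lists, with filled points at an edgeR adjusted p under 0.05, black bars at list medians and a dashed line at the median of all tested genes; values beyond 3 in either direction are drawn at the edge. The neutrophil granule list lies wholly to the right, the stem and progenitor list is centred near 0, and the T cell genes have their median at 0.86.

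Markers of other cells differed between the same libraries, and their counts are to be read beside 1.04% of all tested genes called higher. Neutrophil granule markers had 9 of 10 tested genes higher, with summed levels of 54145 to 61653 CPM over the MC38 libraries and 28016 to 28285 CPM over the controls. B cell markers had 2 of 16 higher, Ighm and Igkc, with sums of 4778 to 5872 CPM over the MC38 libraries and 2583 to 3102 CPM over the controls. The call of Ighm held with each library left out in turn. The Igkc call did not survive every omission of a library (edgeR adjusted p = 0.139 without MC38 library 2, 0.0977 without MC38 library 4, 0.138 without control library 1 and 0.191 without control library 2). Plasmacytoid dendritic cell markers had 2 of 18 higher, Siglech (2.34-fold, edgeR adjusted p = 0.01299) and Ccr9 (4.23-fold, edgeR adjusted p = 0.0405), with the sums given above. The Siglech call did not survive every omission of a library (edgeR adjusted p = 0.09104 without control library 2). The Ccr9 call did not survive every omission of a library (edgeR adjusted p = 0.115 without MC38 library 2, 0.113 without MC38 library 4, 0.0756 without control library 1 and 0.138 without control library 2). For Ccr9 the adjusted p was 0.0794 in limma-voom and 0.0512 in edgeR without immunoglobulin genes. No marker of these 3 lists was at 0 in every library. Stem and progenitor markers had 0 of 18 called in edgeR or limma-voom and 2 called by DESeq2, which called 4.14% of genes higher and 2.57% lower. At an unadjusted edgeR p under 0.05, 1 was higher and 1 lower, beside 9.26% and 8.22% of all tested genes. Their sums were 2964 to 3423 CPM over the MC38 libraries and 3137 to 3302 CPM over the controls. The part of these other cell types in the T and NK cell values was not tested.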

How the data were processed

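The authors deposited 1 table of raw read counts per Ensembl gene with 7 columns. The tools behind them were HTSeq 0.10.0, STAR 2.6.1 and Trim Galore 0.5.0, with mm10 as the build, per the submitters' processing notes. Strand setting, annotation release and filters are not given in the labels. No molecular identifiers are named, so PCR copies count as reads, and intervals and floors cover counting error only. Symbols, coordinates and exon lengths came from GENCODE mouse release 21 (GRCm38), which named 27728 of 28786 genes.

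MC38 was compared with control in edgeR 4.0.16 (R 4.3.3) on 4 and 2 libraries, with TMM scaling, filterByExpr at a minimum count of 10, the robust quasi-likelihood test, two-sided, and Benjamini-Hochberg adjustment over 14226 genes. All 34 members passed the filter, Cd6 and Tbx21 only through MC38. CPM and RPKM were computed here from the counts with TMM-scaled library sizes. Alternatives were DESeq2 1.42.0, limma-voom (limma 3.58.1), other scalings and filters, all 7 columns, no immunoglobulin genes, each library left out, and the replicate number as a block. The fits were tested on simulated counts. The members and lists were chosen with earlier results of these data known. Named genes were all members and, per related list, at most 6 called genes and the 2 of smallest p among the others. Of the listed symbols, 4 of T cell receptor signalling and 3 of NK receptors and adaptors were not analysed here. Genes the rule takes from the neutrophil list, and uncalled ones from the B cell and plasmacytoid dendritic cell lists, are given as counts only. Kit and Hlf are named outside the rule, chosen after their values were seen.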

Additional observations from a re-analysis of the deposited data

Results flagged for a closer look

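Over 36 values, the 34 genes and their 2 sums, the 4 MC38 libraries were checked for a library far from the rest. The gap to the nearest library, as a share of the whole range, exceeded Dixon's 95% critical value for 2 of them, and chance flags about 1 in 20. For Cd2 the gap was 0.845 of the range, with MC38 library 2 at 19.4 CPM above the other libraries at 9.03 to 10.6 CPM. For Prf1 it was 0.955, with 20 counts in MC38 library 4 against 1, 0 and 0 in MC38 libraries 1 to 3.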

How the results depend on the processing

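Depth limits the rare members, and 2 control libraries limit every test. Of 505 values of single members under the alternatives, 454 kept direction and side of the threshold and 25 came to pass it. The threshold was no longer passed by 8 (all Klra17), and 18 changed sign, in 8 genes that edgeR did not call. The 25 are not separate pieces of evidence. They include calls of DESeq2, which called 4.14% of its tested genes higher, beside 1.04% in edgeR. Others came from the fit with all 7 columns, which counts a control column that is not independent. Some belong to Tbx21, which met the count filter only through MC38.

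Genes higher and lower in MC38 numbered 302 and 202 without the low-count filter, 634 and 393 with DESeq2, 791 and 663 with all 7 columns, 95 and 36 without immunoglobulin genes, 269 and 190 with the replicate block, and 90 higher with limma-voom. Leaving out 1 library gave 44 to 259 higher and 16 to 183 lower. Of all tested genes, 1.41% were higher without the filter, 1.48% at a minimum count of 30 and 0.672% without immunoglobulin genes. With DESeq2 4.14% were higher and 2.57% lower, with 7 columns 5.74% and 4.81%, and with limma-voom 0.633% and 0.499%. With 1 MC38 library left out, 0.494% to 1.86% were higher. The counts that follow are to be read beside these shares. T cell genes called higher were 1 without the filter (Trbc1), 5 with DESeq2 and 5 with 7 columns. NK cell genes called higher were 3 without the filter, 2 at a minimum count of 30, 5 with DESeq2, 0 with limma-voom, 4 with 7 columns, 0 without immunoglobulin genes, and 0 to 2 with 1 library left out. The related lists had 34 higher without the filter, 42 with DESeq2, 45 with 7 columns and 7 to 26 with 1 library left out, and 2 lower with DESeq2, 2 with 7 columns and 1 with the replicate block.

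The T cell median ran from 0.71 to 1.13 with 1 library left out, and the NK cell median from -0.00172 to 0.89, with 0.55 at a minimum count of 30 and 0.58 with 7 columns. The T cell sum ratio was 1.52 by library totals, 1.37 to 1.62 with 1 library left out and 1.94 without Cd27 and Lat. The NK cell sum ratio was 0.881 to 1.03 with 1 library left out and 1.96 without Nkg7 and Ctsw. Where a control library was left out, the lone control was assumed to vary like the MC38 libraries. The cause of these shifts was not tested.

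With 1 library left out, log2 fold changes spanned 0 for Cd3e (-0.12 to 0.59), Cd5 (-1.14 to 1.33), Txk (-0.20 to 1.52), Klrk1 (-0.21 to 0.32), Prf1 (-1.88 to 2.10), Il2rb (-1.04 to 1.80), Eomes (-0.70 to 0.45) and Il18r1 (-0.34 to 0.38). Beside these, the sign turned with the replicate block for Cd3e (-0.30), Il2rb (0.16) and Il18r1 (0.23), with limma-voom for Cd5 (0.031) and Il2rb (0.30), and by library totals for Il18r1 (0.0096).

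Replicate numbers 1 and 2 occur in both groups, and the deviations of same-numbered libraries correlated at 0.067 and -0.040 over genes. The deviations of 2 controls from their mean mirror each other, so these values cannot decide whether same-numbered libraries were paired. With the replicate block the edgeR adjusted p was 0.0704 for Klra17 and 0.0304 for Klrb1c. Numbers 3 and 4 were in MC38 alone among the fitted libraries, so the block fit took its difference from libraries 1 and 2.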

Other observations

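Read as families, the lectin-like receptor genes of the NK gene complex had higher summed levels in every MC38 library than in either control, a grouping made after the values were seen and described with no test. The 11 Ly49 genes in the lists, Klra17 included, summed to 30.9, 31.5, 37.7 and 36.2 CPM in MC38 libraries 1 to 4, against 8.74 and 8.67 CPM in control libraries 1 and 2. Of the 9 tested, 2 were called higher in edgeR, Klra17 and Klra9, and in 6 all MC38 libraries were above both controls, beside 1.04% and 14% of all tested genes. Klra4, Klra6, Klra8 and Klra9 met the count filter only through MC38, and without them 1 of 5 was called and 3 of 5 had all MC38 libraries above both controls. Klra2, or Ly49B, which is known from myeloid cells, had 103, 106, 217 and 146 counts in MC38 libraries 1 to 4 and 21 and 60 in control libraries 1 and 2. Klra17, which is not known from NK cells, averaged 10.5 CPM of the mean Ly49 sum of 34.1 CPM in MC38. In control it averaged 2.79 CPM of 8.70 CPM. No sum without these 2 genes was made. Klra8, the activating Ly49H receptor of C57BL/6 mice, had 56, 42, 55 and 60 counts in MC38 libraries 1 to 4 and 5 and 0 in control libraries 1 and 2, and Klra7 had 46, 71, 125 and 65 counts in MC38 libraries 1 to 4 and 16 and 5 in control libraries 1 and 2. Ly49 genes are near-identical copies in places, so single counts are uncertain.

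The 5 NKR-P1 genes summed to 30.1, 24.9, 31.2 and 37.7 CPM in MC38 libraries 1 to 4, against 11.2 and 9.66 CPM in control libraries 1 and 2, with 0 of 4 tested called in edgeR, 2 at an unadjusted p under 0.05, and 2 of 4 with all MC38 libraries above both controls. The 5 genes of CD94, NKG2 and NKG2D summed to 20.6, 17.8, 20.4 and 20.5 CPM in MC38 libraries 1 to 4, against 11.8 and 13.1 CPM in control libraries 1 and 2, with 0 of 3 tested called in edgeR, 1 at an unadjusted p under 0.05, and 1 of 3 with all MC38 libraries above both controls, which was Klrd1. Without Klrd1 the other 4 summed to 7.87, 7.11, 4.67 and 5.697 CPM in MC38 libraries 1 to 4, against 4.54 and 9.58 CPM in control libraries 1 and 2, and the groups overlapped. Over all tested genes, 1.04% were called higher in edgeR and 9.26% were higher at an unadjusted p under 0.05. In 14% of them all MC38 libraries were above both controls. DESeq2 called 1 gene in each of these families, beside 4.14% higher and 2.57% lower of the genes it tested. limma-voom called none, beside 0.633% higher and 0.499% lower. Among T cell genes outside the set, Icos, a costimulatory receptor of activated T cells, had 79, 42, 79 and 73 counts in MC38 libraries 1 to 4 and 0 and 8 in control libraries 1 and 2 (edgeR adjusted p = 0.127), and Sh2d1a, the adaptor SAP, had 97, 51, 12 and 36 counts in MC38 libraries 1 to 4 and 0 and 7 in control libraries 1 and 2 (edgeR adjusted p = 0.239), both tested only through MC38. Foxp3, the factor of regulatory T cells, had 9, 0, 0 and 0 counts in MC38 libraries 1 to 4 and 0 and 1 in control libraries 1 and 2, and Cd40lg had 1 count in all 6 libraries together. The genes named here outside the members were chosen after their values were seen.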
